A study of Mus musculus with 18 samples.

Results

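Ighm, the constant gene of IgM, had the most counts of the antibody genes in these aortas, and few counts came from any other. Whether its counts came from transcripts of whole antibody chains was not tested. The genes described here are 10 immunoglobulin and B-lineage genes among the 54281 genes of the deposited count table: the constant genes Ighm, Igha, Ighg2b, Ighg2c and Igkc, the B cell surface genes Cd79a, Cd79b and Ms4a1, and the antibody assembly genes Jchain and Mzb1. They are the rows whose Ensembl identifiers carry these symbols in the mouse GENCODE annotation, a rule that uses no measured value, although the list was drawn up with earlier results of these data known. All 10 were found.

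RNA came from the descending aorta, cut between the end of the arch and the diaphragm and holding intima, media and adventitia together, of 18 male C57BL/6 mice in 3 groups of 6. HGPS mice, labelled LMNAG609G, carry a knock-in at the endogenous Lmna locus, so that murine progerin, a truncated lamin A, is made wherever Lmna is expressed. The labels do not give the zygosity, and the study describes its HGPS mice as homozygous for the allele. HGPS mice were killed at 64 to 75 d of age, 2-mo WT at 62 d, apart from mouse 6 at 95 d, and 24-mo WT at 609 to 762 d. By the methods, vessels were perfused with PBS in the animal and cleaned before RNA was prepared, WT mice were bought from a supplier and the HGPS line came from another laboratory. No group received an agent. Because whole vessels were measured, fewer cells of a type and less RNA per cell cannot be told apart.

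The totals were 17838351 to 30844775 counts per mouse in HGPS, 12413229 to 21016752 in 2-mo WT and 13622602 to 19871697 in 24-mo WT, so raw counts of different mice are not on the same footing and levels are also given as CPM, the usual depth-scaled unit for sequencing counts, after TMM scaling of each library. A gene at 0 in a mouse could still have up to 3 counts at this depth, which corresponds to 0.0973 to 0.242 CPM of the unscaled total, depending on the mouse. Such limits cover counting error only. The tissue label matched the data: 6 smooth muscle markers summed to 19260 to 37290 CPM in every mouse. One library stood apart in T cell genes. In 24-mo WT mouse 6 the 12 T cell markers summed to 26.1 CPM, against 1.19 to 6.85 CPM in the other 17 mice. Values without that mouse are given for some of the results that it moved.

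B cells carry antibody on their surface as a receptor, in which 2 heavy and 2 light chains are held by the signalling pair Cd79a and Cd79b. Naive B cells make IgM and IgD from Ighm and Ighd, and after activation the same cell can switch to Igha or to an IgG gene while it keeps its rearranged variable segment and its light chain. Plasma cells, the antibody-secreting descendants of B cells, no longer make much Ms4a1 (CD20), Cd79a or Cd79b, and raise Jchain, which joins IgM and IgA into polymers, and Mzb1, a chaperone of the endoplasmic reticulum that helps antibody assembly. In arteries, B cells are known chiefly from the adventitia and from lymphoid tissue around the vessel.

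Several constant genes are near copies of each other, which bears on how a count was shared between them. The first coding exons of Ighg2b (GRCm38, chr12:113307814-113307933, minus strand) and Ighg2c (GRCm38, chr12:113288813-113288932, minus strand) differ at 13 of the 120 bases shown here, marked in capitals, and at 36 of 291 bases over the whole exon. They are shown to make visible how alike the IgG genes can be over the length of a read.
Ighg2b: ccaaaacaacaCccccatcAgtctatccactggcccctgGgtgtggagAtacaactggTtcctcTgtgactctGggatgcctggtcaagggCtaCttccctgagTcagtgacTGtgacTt
Ighg2c: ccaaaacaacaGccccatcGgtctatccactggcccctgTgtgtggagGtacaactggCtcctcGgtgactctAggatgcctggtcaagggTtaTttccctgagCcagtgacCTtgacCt

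The lambda light chain genes Iglc2 (GRCm38, chr16:19198731-19198850, minus strand) and Iglc3 (GRCm38, chr16:19065560-19065679, minus strand) are closer still, with 7 differences in the 120 bases shown, again in capitals, and 11 in 312.
Iglc2: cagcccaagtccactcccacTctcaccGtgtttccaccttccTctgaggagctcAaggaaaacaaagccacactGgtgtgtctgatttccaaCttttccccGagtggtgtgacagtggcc
Iglc3: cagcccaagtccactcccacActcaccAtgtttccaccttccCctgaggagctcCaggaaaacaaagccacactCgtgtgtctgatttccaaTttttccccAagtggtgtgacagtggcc

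Of the 31-base words in its annotated transcripts, Ighg2c shared 15.0% with any other annotated gene (14.4% with Ighg2b), Ighg2b 9.29% (7.03% with Ighg2c), Iglc2 19.6% (18.2% with Iglc3) and Iglc3 40.8% (25.1% with Iglc2). Ighm, Igha, Igkc and Cd79b shared none with any other annotated gene. Cd79a shared 12.2% with the gene model Gm32220, and Mzb1 shared 55.1% with SPATA24, which overlaps it on the same strand. Counts of Ighg2b, Ighg2c, Iglc2, Iglc3, Cd79a and Mzb1 are therefore less certain than the others.

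Ighm (chr12:113418558-113422730, minus strand), the constant gene of IgM, was the one member with more than 100 counts in every mouse. It had 247, 375, 419, 451, 420 and 275 counts in HGPS mice 1 to 6, 465, 276, 211, 105, 248 and 216 counts in 2-mo WT, and 312, 185, 233, 263, 372 and 294 counts in 24-mo WT. Scaled to depth the groups overlapped, at 15.8 ± 2.3 CPM in HGPS, 14.2 ± 4.4 CPM in 2-mo WT and 15.9 ± 2.8 CPM in 24-mo WT (mean ± SD, n = 6 each).

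Igkc (chr6:70726435-70726966, plus strand), the single constant gene of kappa light chains, had fewer counts and varied more between mice. HGPS mice 1 to 6 had 9, 5, 30, 16, 38 and 46 counts of Igkc, 2-mo WT mice 31, 8, 20, 2, 9 and 13 counts, and 24-mo WT mice 19, 15, 22, 33, 63 and 68 counts. The means were 1.085 ± 0.813 CPM in HGPS, 0.768 ± 0.523 CPM in 2-mo WT and 2.10 ± 1.31 CPM in 24-mo WT, and all 3 ranges overlapped. The highest values were those of 24-mo WT mice 5 and 6.

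Cd79a (chr7:24897381-24902197, plus strand), which with Cd79b passes the signal of the B cell receptor into the cell, had 1, 7, 11, 9, 1 and 7 counts in HGPS mice 1 to 6, 16, 2, 14, 0, 5 and 6 counts in 2-mo WT, and 4, 4, 11, 10, 23 and 12 counts in 24-mo WT. Its partner Cd79b (chr11:106311341-106314762, minus strand) had 10, 12, 22, 17, 5 and 28 counts in HGPS, 39, 10, 21, 3, 5 and 12 counts in 2-mo WT, and 15, 1, 11, 29, 34 and 26 counts in 24-mo WT. Within each group the mice differed more than the groups did for both genes.

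Ms4a1 (chr19:11249675-11266241, minus strand), which encodes the B cell surface protein CD20, had 9, 15, 17, 2, 8 and 8 counts in HGPS mice 1 to 6, 31, 17, 27, 4, 5 and 12 counts in 2-mo WT, and 12, 14, 15, 48, 47 and 39 counts in 24-mo WT. The 24-mo WT group was divided, with 39 to 48 counts in mice 4 to 6 and 12 to 15 in mice 1 to 3. In CPM every HGPS mouse lay below 24-mo WT mice 2 to 6, and the ranges overlapped through 24-mo WT mouse 1 (0.703 CPM against up to 0.789 CPM in HGPS).

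**Figure D1:**
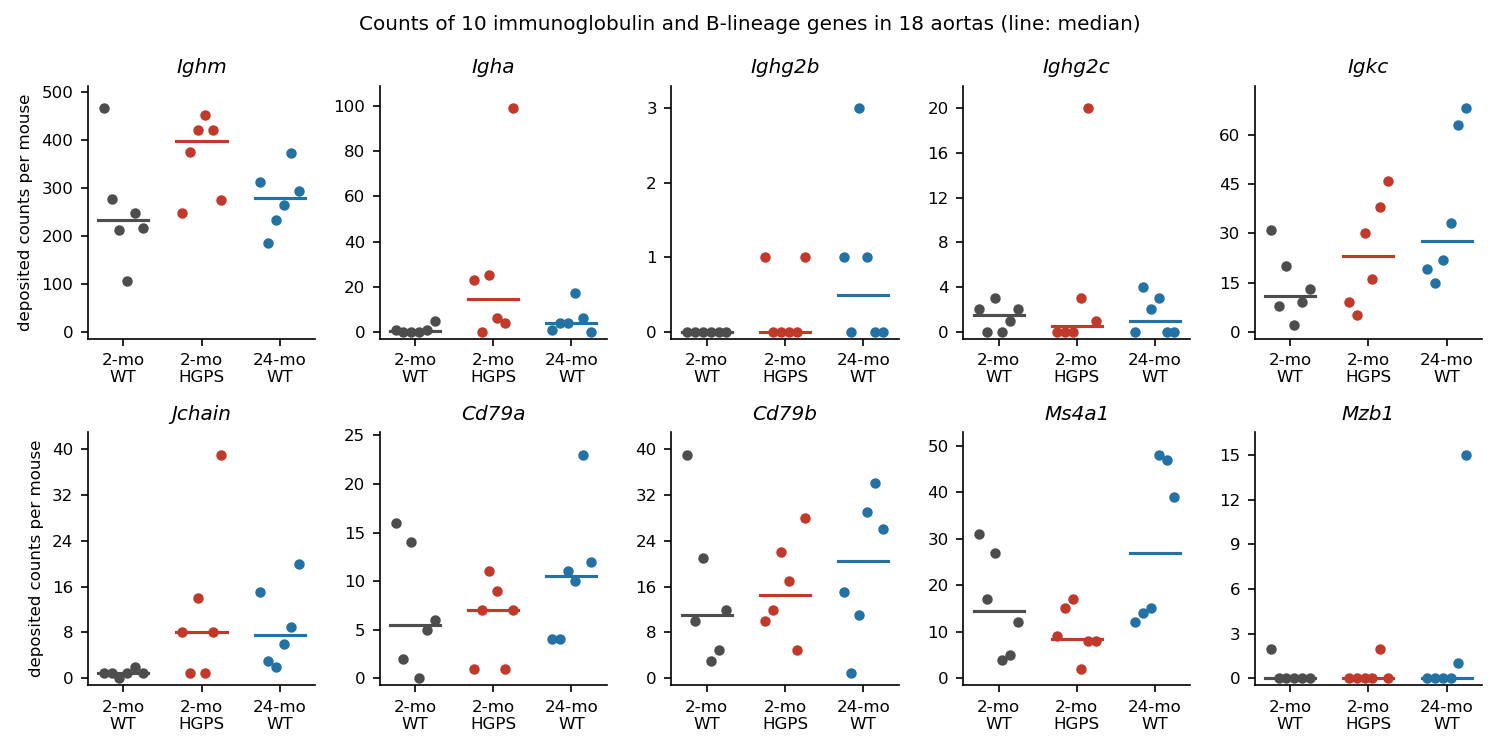
Deposited counts (vertical axes, not scaled to depth) of the 10 members, each point 1 mouse and each line the median of 6. Ighm lies between 105 and 465 counts in all 18 mice, while Igha, Ighg2c, Jchain and Mzb1 each have a single mouse far above the rest of its group.

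The remaining members were at or near the limit of detection in most mice. Igha (chr12:113254830-113260236, minus strand), the constant gene of IgA, had 23, 0, 25, 6, 4 and 99 counts in HGPS mice 1 to 6, 1, 0, 0, 0, 1 and 5 counts in 2-mo WT, and 1, 4, 4, 17, 6 and 0 counts in 24-mo WT. Summed over a group this was 157 counts in HGPS, 7 in 2-mo WT and 32 in 24-mo WT, and HGPS mouse 6 alone held 50.5% of the 196 counts of the series.

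Jchain (chr5:88519809-88527891, minus strand) had 8, 1, 14, 1, 8 and 39 counts in HGPS, 1, 1, 0, 1, 2 and 1 counts in 2-mo WT, and 15, 3, 2, 6, 9 and 20 counts in 24-mo WT. The 2-mo WT group was uniformly low. All 24-mo WT mice lay above all 2-mo WT mice in CPM, although by a narrow gap, 0.108 CPM against 0.107 CPM, each from 2 counts. HGPS mice 2 and 4, with 1 count each, lay within the range of 2-mo WT.

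Mzb1 (chr18:35647267-35649367, minus strand) had 15 counts in 24-mo WT mouse 6, 2 counts each in HGPS mouse 5 and 2-mo WT mouse 1, 1 count in 24-mo WT mouse 5 and 0 in the other 14 mice. Ighg2c (chr12:113285325-113288932, minus strand) had 20 counts in HGPS mouse 5 and at most 4 in any other mouse. Ighg2b (chr12:113302965-113307933, minus strand) had 7 counts in the whole series, at most 3 in a mouse, and none in 2-mo WT.

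Per kilobase of the longest annotated transcript, the mean level over 18 mice fell in the order Ighm (9.01 ± 1.90 CPM per kb, SD), Igkc (2.47 ± 1.99), Cd79b (0.609 ± 0.404), Ms4a1 (0.329 ± 0.260), Cd79a (0.287 ± 0.223), Igha (0.217 ± 0.464), Jchain (0.167 ± 0.221), Ighg2c (0.0914 ± 0.164), Mzb1 (0.0707 ± 0.240) and Ighg2b (0.00826 ± 0.0164). Ighm and Igkc differed by more than either SD, and in each mouse Ighm was above Igkc on this scale. Every other pair of neighbours in the order differed by less than the larger of their SDs.

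The first comparison set HGPS against 2-mo WT and asks how the HGPS aorta differs at this age. The methods give different sources for the WT mice and the HGPS line. Effects of progerin and of source therefore cannot be told apart. Of the 10 members, Ighm, Igkc, Cd79a, Cd79b and Ms4a1 reached the 10 counts in at least 6 mice that the test required, and the other 5 did not. None of the 5 passed at an adjusted p under 0.05 (edgeR's quasi-likelihood test, Benjamini-Hochberg over 15210 genes), where 43.2% of all tested genes did, and none passed the study's cut-offs, which ask for 1.5-fold and for an adjusted p below 0.001, where 9.50% did. At an unadjusted p under 0.05 the count was 0 with edgeR and 1 with DESeq2, whose adjusted count was also 0. The median log2 fold change of the 5 was -0.27, beside 0.00 over all tested genes. Ighm was the best determined, with a log2 fold change of 0.14 ± 0.17 (SE), a 95% interval of -0.21 to 0.49 and an adjusted p of 0.54. The intervals of the others were wide: Ms4a1 had -1.05 (95% interval -2.16 to 0.06, adjusted p = 0.12) and Igkc 0.46 (-0.69 to 1.60, adjusted p = 0.53), so that a fall of Ms4a1 or a rise of Igkc by 2-fold (1 on the log2 scale) lay within them.

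With the count minimum applied to 3 mice in place of 6, Igha and Jchain also entered the test. Both were higher in HGPS, Igha with a log2 fold change of 4.13 ± 1.14 (SE) and Jchain with 3.13 ± 0.93 (adjusted p = 0.0108). These were 2 of 7 members tested, against 41.4% of the 16094 genes that passed this lower minimum. Without any minimum 2 of 10 members passed, against 21.0% of 28882 genes. Igha entered through HGPS mice 1, 3 and 6 and 24-mo WT mouse 4, and Jchain through HGPS mice 3 and 6 and 24-mo WT mice 1 and 6. No 2-mo WT mouse had 10 counts of these genes, so their entry itself favoured a difference. For Igha the HGPS mice alone met the minimum of 3. Its values are therefore given as a description, although the counts of members that passed include it. Without HGPS mouse 6 the values fell to 2.90 for Igha and 2.19 for Jchain (adjusted p = 0.0490). In Igha and Jchain the ranges of HGPS and 2-mo WT overlapped, since HGPS mouse 2 had no Igha counts and HGPS mice 2 and 4 had 1 Jchain count.

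The second comparison set 24-mo WT against 2-mo WT and asks what normal aging changes. It shares the 2-mo WT mice with the first. None of the 5 tested members passed with edgeR at an adjusted p under 0.05, beside 11.7% of all tested genes, or at the study's cut-offs, beside 2.00%. Igkc passed at an unadjusted p under 0.05, as 1 of 5. Its log2 fold change was 1.42 ± 0.54 (SE, 95% interval 0.29 to 2.55) with an adjusted p of 0.098, and DESeq2 gave an adjusted p of 0.0498, which made 1 call. Without 24-mo WT mouse 6, the mouse with most Igkc, it was 1.11 (adjusted p = 0.22). Ighm had 0.16 ± 0.17 (adjusted p = 0.63). Ms4a1 had 0.84 ± 0.49, Cd79a 0.56 ± 0.59 and Cd79b 0.37 ± 0.55, with adjusted p-values of 0.31, 0.61 and 0.74. The median of the 5 was 0.56, beside 0.01 over all tested genes.

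With the minimum of 10 counts in 3 mice, Jchain was higher in 24-mo WT by 3.07 ± 0.94 (SE, log2, adjusted p = 0.0399), as 1 of 7 members, against 11.2% of genes. Without a minimum it was 1 of 10, against 4.98%. This call was lost in 9 of the 18 fits that left out a mouse, namely any of the 2-mo WT mice or 24-mo WT mouse 1, 5 or 6, and the adjusted p ranged from 0.0165 to 0.0929. Without 24-mo WT mouse 6 the log2 fold change was 2.65 (adjusted p = 0.0929). Igha had 2.09 ± 1.28 (adjusted p = 0.34).

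The third comparison set HGPS directly against 24-mo WT. Genotype, source and age differ together in it, so their effects cannot be told apart. Ms4a1 passed the test and was lower in HGPS, at 0.454 ± 0.251 CPM against 1.66 ± 0.90 CPM (SD, n = 6 each), a log2 fold change of -1.89 ± 0.52 (SE, 95% interval -2.97 to -0.81, adjusted p = 0.0054). It was 1 of 5 tested members, beside 47.3% of all tested genes at an adjusted p under 0.05, and it was not past the study's cut-offs, beside 12.1%. Other than at those cut-offs the call held in 27 alternatives to the main test, with log2 fold changes of -2.13 to -1.63 and adjusted p-values of 0.0010 to 0.0147, and in 18 further fits that left out a mouse at the minimum of 10 counts in 3 mice, with adjusted p-values up to 0.0166. Without 24-mo WT mouse 6 it was -1.76 (adjusted p = 0.0124), and without mouse 4 it was -1.72 (adjusted p = 0.0147).

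The other tested members had values on the same side of 0 and did not pass: Cd79a -1.21 (95% interval -2.45 to 0.04, adjusted p = 0.10), Igkc -0.96 (-2.04 to 0.12, adjusted p = 0.13), Cd79b -0.64 (-1.79 to 0.51, adjusted p = 0.36) and Ighm -0.02 (-0.37 to 0.34, adjusted p = 0.95). Igkc passed, with an adjusted p of 0.0491, when HGPS mouse 6 was left out. With the minimum of 10 counts in 3 mice, Ms4a1 was again the 1 member of 7 that passed, against 45.8% of genes, and without a minimum it was 1 of 10, against 24.0%. Igha had 2.04 ± 0.92 (adjusted p = 0.078) and Jchain 0.07 ± 0.69 (adjusted p = 0.95).

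**Figure D2:**
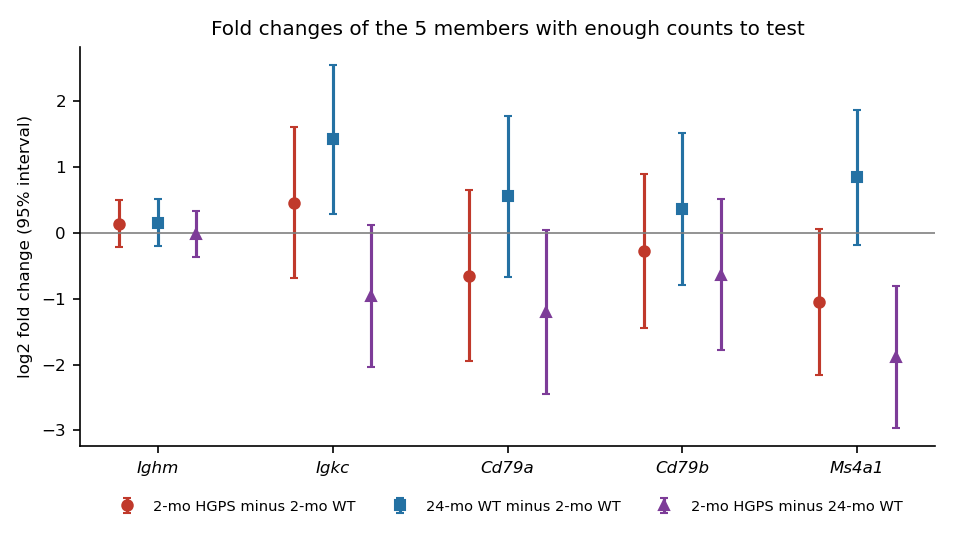
Log2 fold changes (vertical axis) with 95% intervals of the 5 tested members in the 3 comparisons, each of 6 against 6 mice. The intervals of Ighm are the narrowest, at 0.14, 0.16 and -0.02, and of the other genes Ms4a1 in HGPS minus 24-mo WT is the one that passed the test.

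The classes of heavy chain differed between single mice more than between groups. Ighm made up 71.8 to 98.1% of the counts of the 8 heavy chain constant genes, with Ighd, the IgD gene, at 2 to 38 counts. Summed over 6 mice, Ighm was 95.7% of 1589 heavy chain counts in 2-mo WT, 89.5% of 2445 in HGPS and 88.6% of 1872 in 24-mo WT. Without HGPS mouse 6 and 24-mo WT mouse 6, left out after their values were seen, the last 2 shares were 92.7% of 2062 and 91.1% of 1499. The lowest share was in HGPS mouse 6, where Igha was 25.8% of 383 counts (exact binomial 95% interval 21.5 to 30.5%). In HGPS mouse 5 the IgG genes, mainly Ighg2c, were 5.08% of 453 counts (3.24 to 7.52%). In 24-mo WT mouse 6 they were 15.5% of 373 counts (12.0 to 19.6%).

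In that last mouse the IgG counts were those of Ighg1, an IgG gene outside the 10 members, which had 58 counts there, 1 in HGPS mouse 5 and 0 in the other 16 mice. The same mouse had the highest Mzb1 and Igkc counts of the series, at 15 and 68, and the second highest Jchain count, 20. HGPS mouse 6, with 99 counts of Igha, had the highest Jchain count, 39. HGPS mouse 5, with 20 counts of Ighg2c, had 8 counts of Jchain and 38 of Igkc. These mice were singled out after their values were seen.

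**Figure D3:**
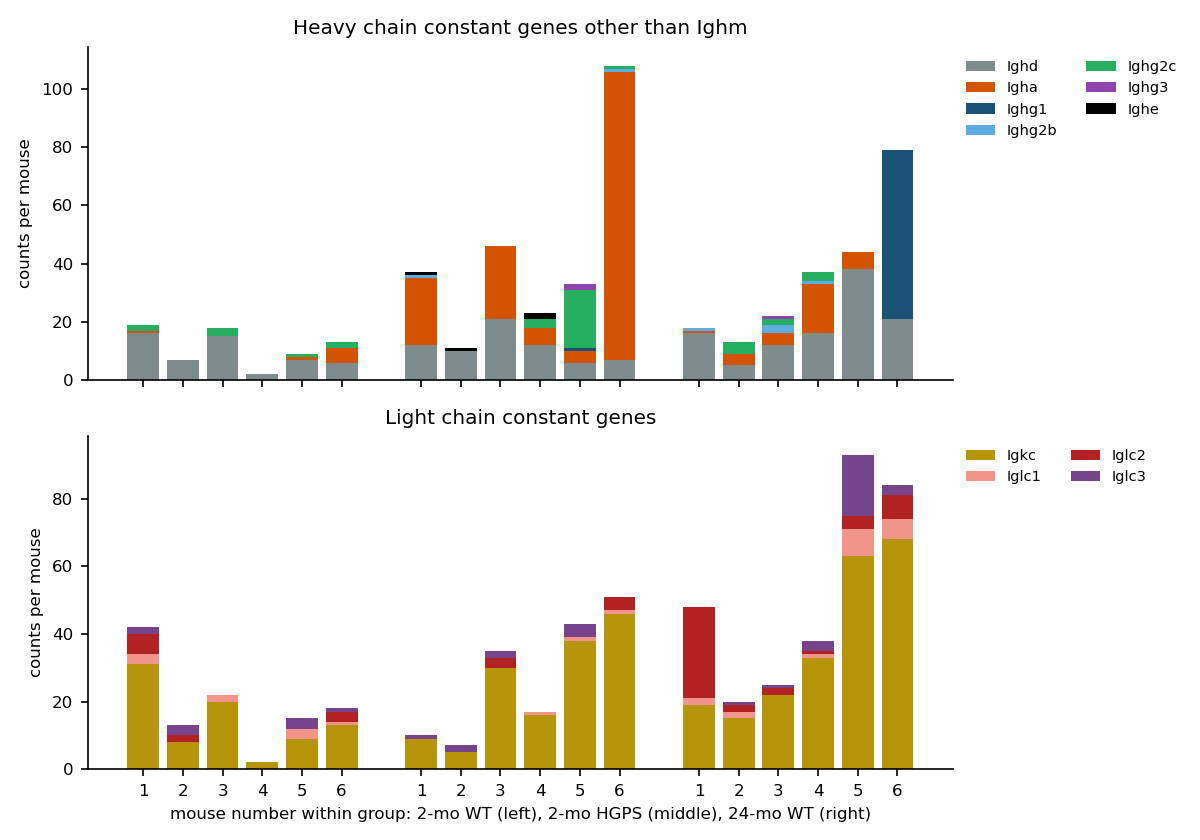
Counts (vertical axes) of the heavy chain constant genes other than Ighm and of the light chain constant genes, each bar 1 mouse and each colour a gene. Igha stands out in HGPS mouse 6 (99 counts), Ighg2c in HGPS mouse 5 (20), Ighg1 in 24-mo WT mouse 6 (58) and Iglc2 in 24-mo WT mouse 1 (27).

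Light chains were mostly kappa. Of the summed light chain constant counts, Igkc was 88.3% of 163 in HGPS, 74.1% of 112 in 2-mo WT and 71.4% of 308 in 24-mo WT. Per mouse the share ran from 39.6 to 100%, and the lowest was 24-mo WT mouse 1, with 19 counts of Igkc and 29 of the lambda genes (39.6%, exact binomial 95% interval 25.8 to 54.7%). Of those 29, 27 were assigned to Iglc2, one of the near copies shown above.

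The ratio of Ighm to Igkc counts was 5.98 to 75.0 in HGPS (median 20.7), 10.5 to 52.5 in 2-mo WT (median 22.1) and 4.32 to 16.4 in 24-mo WT (median 9.28). Per kilobase it was 1.87 to 23.5 in HGPS, 3.31 to 16.5 in 2-mo WT and 1.36 to 5.15 in 24-mo WT. The ranges overlapped. In HGPS the mouse with least Igkc, mouse 2, had 15.8 CPM of Ighm with 0.21 CPM of Igkc, and the mouse with most, mouse 6, had 13.8 with 2.31. In 2-mo WT both genes were low in mouse 4, at 8.52 and 0.162 CPM, and high in mouse 1, at 21.4 and 1.42.

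**Figure D4:**
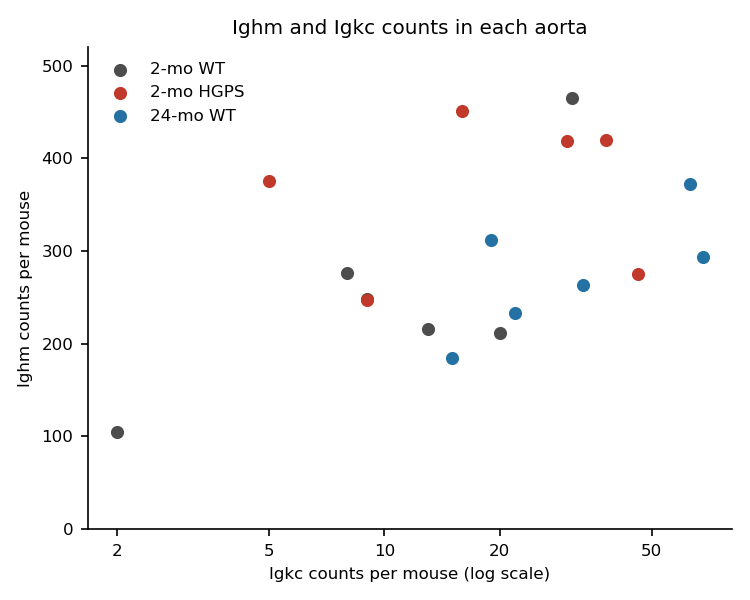
Ighm counts (vertical axis) against Igkc counts (horizontal axis, log scale), each point 1 mouse. Ighm stays between 105 and 465 counts while Igkc runs from 2 to 68.

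Variable segments, which form the antigen-binding end of each chain, were counted one gene at a time. The table held 216 of them, and 108 had a count in any mouse, 51 heavy, 54 kappa and 3 lambda, with 526 counts in all. The number of segments with counts was 7 to 24 per mouse in HGPS (mean 13.0 ± 6.8, SD), 4 to 13 in 2-mo WT (8.67 ± 4.46) and 12 to 28 in 24-mo WT (20.8 ± 5.6). Scaled down to the smallest library, the expected means were 9.25, 6.90 and 17.3. The 24-mo WT mean was the highest on both scales, and the groups overlapped. Variable segments were not tested between groups.

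The 3 segments with most counts were Igkv5-43 (25 counts), Ighv1-39 (25) and Igkv6-15 (21). Ighv1-39 had 19 of its counts in HGPS mouse 6, the mouse with 99 counts of Igha, and 4 in 2-mo WT mouse 1. Igkv5-43 had 12 counts in HGPS mouse 6 and 9 in HGPS mouse 5. Igkv6-15 had 9 in HGPS mouse 5 and 5 in 24-mo WT mouse 3. Chosen after their values were seen, Igkv10-96 had 10 of 14 counts in HGPS mouse 6, Ighv2-9-1 had 11 of 12 in HGPS mouse 5, Ighv5-17 had 10 of 18 in 24-mo WT mouse 6 and Iglv2 had 7 of 11 in 24-mo WT mouse 1.

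Other genes used by B cells did not all move one way. Of 22 such genes outside the members, 10 were tested. In HGPS against 2-mo WT 5 were higher and 1 lower, beside the 43.2% of all tested genes that passed, with a median log2 fold change of 0.66. The 3 with the smallest p were Cd72, a coreceptor, at 1.90 ± 0.40 (SE, adjusted p = 0.00096), Ebf1, a transcription factor of early B cells that fat and vessel wall cells also use, at -0.23 ± 0.06 (adjusted p = 0.0023), and Cd74, the chaperone of class II molecules that macrophages also make, at 1.22 ± 0.33 (adjusted p = 0.0057). In 24-mo WT against 2-mo WT 2 were higher, beside 11.7% of all tested genes passing. These were Ebf1 at 0.24 ± 0.06 and Bank1, a B cell scaffold protein, at 0.54 ± 0.16. Mean levels ran from 82.9 to 115 CPM for Ebf1 and from 82.9 to 193 CPM for Cd74 in the 3 groups.

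In HGPS against 24-mo WT 2 of the 10 tested were higher and 1 lower, beside 47.3% of all tested genes passing. The kinase Btk was at 0.73 ± 0.27 (SE), the adaptor Blnk at 0.61 ± 0.24 and Ebf1 at -0.47 ± 0.06. With the minimum of 10 counts in 3 mice, 16 were tested, and 6 were lower in HGPS and 2 higher (Btk and Blnk), a share near the 45.8% of all genes at that minimum. Blk, Fcmr and Cd22 reached 10 counts in 24-mo WT mice and in no other mouse, so these 3 entered the test through the group in which they were high and had to differ. Their values are given as a description. The number higher ran from 0 to 3 when a mouse was left out. Btk (adjusted p = 0.037) lost its call in 6 of 18 such fits, among them the fit without 24-mo WT mouse 6. Blnk (adjusted p = 0.047) lost its call in 13 of 18. Blk, a kinase of the B cell receptor, had 4, 2, 3, 2, 2 and 7 counts in HGPS, 8, 2, 2, 3, 0 and 1 counts in 2-mo WT, and 13, 5, 17, 22, 30 and 19 counts in 24-mo WT. Every HGPS mouse lay below every 24-mo WT mouse in CPM of Blk, and the log2 fold change was -2.68 ± 0.52 (SE).

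Fcmr, the receptor for IgM, was at -2.32 ± 0.52 (SE) and Cd22, an inhibitory receptor, at -1.83 ± 0.56. Spib, a transcription factor, was at -2.19 ± 0.64. It reached 10 counts in 24-mo WT mice 1, 4, 5 and 6 and in 2-mo WT mouse 1, but in no HGPS mouse. The 24-mo WT mice alone met the minimum of 3, so its value is also given as a description. The choice of Fcmr, Cd22 and Spib was made with their values in view. Leaving out 24-mo WT mouse 5 or 6 reduced the number of lower genes from 6 to 4, of 13 and 14 that were then tested. In 24-mo WT against 2-mo WT with this minimum, Ebf1 and Bank1 were again higher, beside 11.2% of all genes. Bank1 (adjusted p = 0.034) lost its call in 7 of the 18 fits that left out a mouse. The fit without 24-mo WT mouse 6 was among them. Blk, with the limit given above, was at 2.64 ± 0.54.

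**Figure D5:**
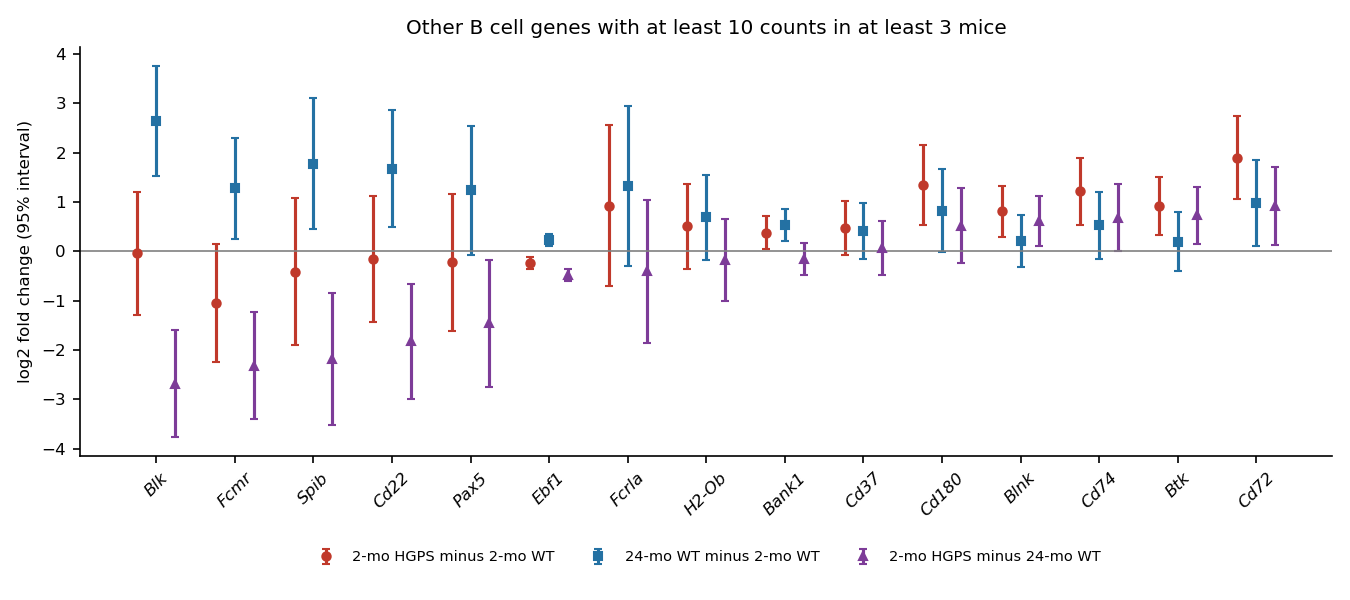
Log2 fold changes (vertical axis) with 95% intervals of 15 of the 16 other B cell genes that reached 10 counts in 3 or more mice, ordered by HGPS minus 24-mo WT, 6 mice per group. Blk (-2.68), Fcmr (-2.32), Spib (-2.19) and Cd22 (-1.83) lie lowest in that comparison, and Cd72 lies highest. Blk, Fcmr and Cd22 are among the 16 through 24-mo WT mice alone, and for Spib those mice were enough by themselves.

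Among the other immunoglobulin constant genes, Ighd alone had enough counts to test, with 6 to 21 counts in HGPS, 2 to 16 in 2-mo WT and 5 to 38 in 24-mo WT. Its log2 fold changes were -0.02 (adjusted p = 0.97) in HGPS against 2-mo WT, 0.99 (adjusted p = 0.16) in 24-mo WT against 2-mo WT and -1.01 (adjusted p = 0.056) in HGPS against 24-mo WT.

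Genes that plasma cells use were measured as a list of 12, of which 9 were tested. In HGPS 6 were higher than in 2-mo WT and none lower, beside 43.2% of all tested genes passing, and 7 were higher than in 24-mo WT, beside 47.3%. Derl3 is a component of the endoplasmic reticulum degradation machinery. It had 72 to 132 counts in HGPS, 3 to 8 in 2-mo WT and 3 to 7 in 24-mo WT. The log2 fold changes of HGPS against 2-mo WT and 24-mo WT were 4.06 ± 0.28 and 4.08 ± 0.28 (SE). Derl3 reached the count minimum in HGPS mice and in no other mouse, so its entry itself favoured a difference. These values are therefore given as a description, although the counts of genes that passed include Derl3. Creld2, a chaperone of the endoplasmic reticulum, was higher in HGPS by 0.96 ± 0.09 and 1.01 ± 0.09. Sdc1, syndecan-1, was higher by 0.63 ± 0.08 and 1.00 ± 0.08. All 3 are also made by cells other than plasma cells. In 24-mo WT against 2-mo WT Sdc1 was the 1 gene that passed, lower by -0.38 ± 0.08, beside 11.7% of all tested genes.

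The plasma cell genes with a narrower range of expression had few counts. Tnfrsf17, the BCMA receptor of plasma cells, had 2 to 12 counts per mouse, Prdm1, a transcription factor of plasma cells, 0 to 13, and Pou2af1, a B cell coactivator, 1 to 11. They were named after their values were seen. The mice with the highest Igha, Ighg1 and Ighg2c counts did not have the highest counts of these 3 genes, except that 24-mo WT mouse 6 shared the highest Pou2af1 count, 11. Slamf7, a receptor of plasma cells and other leukocytes, was also named after its values were seen. It was highest of the series in HGPS mouse 6 (46 counts) and highest of its group in 24-mo WT mouse 6 (21). The whole HGPS group was high, at 19 to 46 counts against 1 to 17 in 2-mo WT and 4 to 21 in 24-mo WT.

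Of 7 germinal centre and precursor genes, Bcl6 was the 1 tested, and HGPS mice had more of it than 2-mo WT (0.83 ± 0.15, SE, adjusted p = 0.00021) and than 24-mo WT (0.41 ± 0.15, adjusted p = 0.029). Bcl6 is also used by many cells outside the germinal centre. Rag1, the recombinase of lymphocyte precursors, had 81 counts in 2-mo WT mouse 5 and at most 29 elsewhere. Dntt, which adds bases at the joints, had 12 counts in the same mouse and at most 4 elsewhere. That mouse also had the highest T cell marker sum of its group, 5.88 CPM. It had 0 counts of Igll1 and Vpreb1, which are also on the list. Which lymphocytes the Rag1 and Dntt counts came from was not tested.

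Of 11 genes for signals that draw and keep B cells 8 were tested. In HGPS against 2-mo WT 1 passed, beside 43.2% of all tested genes. In 24-mo WT against 2-mo WT 1 passed, beside 11.7%. In HGPS against 24-mo WT 2 were higher and 1 lower, beside 47.3%. Ltbr, the lymphotoxin receptor, was higher in HGPS, both against 2-mo WT (0.24 ± 0.07, SE, adjusted p = 0.0099) and against 24-mo WT (0.37 ± 0.07, adjusted p = 0.00028). Ccl19, a chemokine of lymphoid tissue, was lower in 24-mo WT than in 2-mo WT (-0.49 ± 0.12, adjusted p = 0.011). In HGPS against 24-mo WT, Ccl19 was higher (0.54 ± 0.12, adjusted p = 0.0012) and Il7, a survival factor of lymphocytes, lower (-0.64 ± 0.26, adjusted p = 0.049). With the minimum of 10 counts in 3 mice Il7 no longer passed (adjusted p = 0.055), nor did it without 24-mo WT mouse 6 (-0.48, adjusted p = 0.13).

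Cxcl13, the chemokine that draws B cells into follicles, and Ltb, a lymphotoxin chain, were named after their values were seen. Cxcl13 had 11 to 38 counts in HGPS, 11 to 50 in 24-mo WT and 1 to 5 in 2-mo WT, apart from 74 in 2-mo WT mouse 2. Its log2 fold changes were 0.04 (adjusted p = 0.97) in HGPS and 0.83 (adjusted p = 0.56) in 24-mo WT against 2-mo WT. Without that mouse they were 2.51 and 3.30. This fit was picked with the value of the mouse known, and no other 2-mo WT mouse had 10 counts. Its 2 fold changes are therefore given as a description. Ltb had 3 to 18 counts in 24-mo WT and 0 to 5 in 2-mo WT. At the minimum of 10 counts in 3 mice its log2 fold change was 2.32 ± 0.53 (SE), and it entered that test through 24-mo WT mice 2, 5 and 6 and HGPS mouse 3, with no 2-mo WT mouse among them.

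Receptors for antibody were measured as a list of 8, of which 6 were tested, and 5 were higher in HGPS with 2-mo WT as the reference, beside 43.2% of all tested genes passing, with a median log2 fold change of 1.20. Fcgr2b, the inhibitory IgG receptor, was at 26.9 ± 8.2 CPM in HGPS against 9.64 ± 1.97 CPM in 2-mo WT (1.47 ± 0.18, SE, adjusted p = 6.7e-06), and no HGPS mouse overlapped a 2-mo WT mouse. Fcer1g, the shared signalling chain, was higher by 1.17 ± 0.20 and Fcgr3, an activating IgG receptor, by 1.24 ± 0.21. Against 24-mo WT 5 were also higher in HGPS, beside 47.3% of all tested genes. Among them were Fcgr2b (1.24 ± 0.18), Fcgr3 (1.09 ± 0.21) and Fcgrt, which recycles IgG (0.34 ± 0.08). In 24-mo WT against 2-mo WT Fcgrt was lower (-0.33 ± 0.08, adjusted p = 0.0079), the 1 receptor that passed, beside 11.7%. Macrophage markers moved with the receptors, although Fcgr1, an IgG receptor, stands in both lists. All 10 were higher in HGPS in both comparisons, beside 43.2% and 47.3% of all tested genes passing. The sum of the macrophage markers was 655 to 984 CPM in HGPS, 367 to 558 CPM in 2-mo WT and 323 to 651 CPM in 24-mo WT. The part of macrophages in the receptor result was not tested.

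Other cell types that the dissected vessel could hold were summarised as lists. The 12 T cell markers summed to 2.14 to 6.85 CPM in HGPS, 1.19 to 5.88 CPM in 2-mo WT and 2.69 to 26.1 CPM in 24-mo WT. Of 4 tested 1, Cd2, was higher in HGPS against 2-mo WT (1.93 ± 0.66, SE). Cd2 reached the count minimum in every HGPS mouse and in 24-mo WT mouse 6, but in no 2-mo WT mouse. The HGPS mice alone met the minimum, so its entry itself favoured a difference and its value is given as a description. With the lower count minimum its call was lost without HGPS mouse 6. None of the 11 blood genes, of which 9 were tested, passed in any comparison, and their sums ran from 580.5 to 5363 CPM in HGPS, 575 to 6546 CPM in 2-mo WT and 1809 to 7186 CPM in 24-mo WT. The 2-mo WT mouse with the highest blood sum, mouse 1, also had the highest Ighm, Igkc and Cd79b CPM of its group. Cd79a and Ms4a1 CPM were highest in mouse 3 of that group. In HGPS it was mouse 3 that had the highest blood sum. Ighm, Cd79a and Ms4a1 CPM were highest in that mouse, and Igkc and Cd79b CPM in mouse 6. In 24-mo WT the highest blood sum was in mouse 2, which had the lowest Igkc and Cd79b CPM of its group, 1.08 and 0.0717. Of 8 markers of lymph node stroma and vessels, Glycam1 and Madcam1 had no count in 2-mo WT and Madcam1 none in 24-mo WT, and the list summed to 55.8 to 80.2 CPM in HGPS, 33.3 to 59.9 CPM in 2-mo WT and 20.6 to 67.7 CPM in 24-mo WT. Lyve1, a marker of lymphatic vessels that also stands in the macrophage list, made up 61.8 to 94.9% of that sum in each mouse. Fat markers summed to 773 to 2840 CPM in HGPS, 144 to 1054 CPM in 2-mo WT and 206 to 906 CPM in 24-mo WT, with 7 of 8 higher in HGPS in both comparisons and 1 lower against 24-mo WT. Of 6 smooth muscle markers 4 were lower in HGPS in both comparisons. Of 6 fibroblast markers 3 were lower against 2-mo WT, and 2 were lower and 1 higher against 24-mo WT. Of 6 endothelial markers 1 was higher against 2-mo WT and none passed against 24-mo WT. The fibroblast and endothelial counts were near or below the shares of all tested genes. The part of these cell types in the members' counts was not tested.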

How the data were processed

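RNA was measured in 6 HGPS, 6 2-mo WT and 6 24-mo WT aortas. The authors made stranded libraries from total RNA depleted of ribosomal RNA, sequenced them from both ends, used salmon to assign reads to transcripts (GENCODE M23, GRCm38.p6) and tximport to sum them by gene. The deposited values are these estimated counts, in whole numbers and not normalized. The submitters' processing notes also name Bowtie 0.12.2, with no role given. How salmon divides reads among near-identical genes affects IgG and lambda counts. Symbols, coordinates and transcripts came from GENCODE M21, on the same assembly, where 54107 of 54281 identifiers were found. Groups and replicate numbers came from the labels.

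The 15210 genes that reached 10 estimated counts in 6 or more mice entered edgeR 4.0.16 (glmQLFit and glmQLFTest, R 4.3.3) on the deposited counts, with TMM, all 3 groups in one fit and Benjamini-Hochberg adjustment. An SE was derived from each log2 fold change and its F statistic, and CPM uses TMM-scaled totals. The median log2 fold change of a list covers its tested genes. The members and gene lists were chosen with earlier results of these data known. Of each list, the 3 genes with the smallest p in the comparison spoken of were named, and of variable segments the 3 with most counts. Alternatives were DESeq2 1.42.0, other scalings and count minimums, a robust fit, the 2 groups alone, the replicate number as a block and each mouse left out in turn. Mice of a group differed by more than counting noise (45 pairs, chi-square over its degrees of freedom 7.56 to 83.4), so each counted once. On simulated counts for 24-mo WT against 2-mo WT over 14988 genes, the fit recovered 80% of 100 genes changed 2-fold and 95% of 100 changed 4-fold, with 5 calls among unchanged genes. Replicates are separate mice. RT-qPCR, mechanical and staining experiments were not analysed here. Values of 2 list genes are not reported here, although the counts over their lists include them.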

Additional observations from a re-analysis of the deposited data

Results flagged for a closer look

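In 11 of 34 sets of 6 mice examined (the 10 members with Ighd and Ighg1, in each group with any count), 1 mouse lay apart from the others by Dixon's ratio, where chance alone gives about 1 in 20. The ratio counts sparse genes readily, because a gene at 0 in 5 mice and above 0 in the last always passes.

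Igha was apart in all 3 groups, in HGPS mouse 6 (4.98 CPM, 99 counts), 2-mo WT mouse 6 (0.258 CPM, 5 counts) and 24-mo WT mouse 4 (0.927 CPM, 17 counts). HGPS mouse 6 was also apart in Jchain (1.96 CPM, 39 counts). HGPS mouse 5 was apart in Ighg2c (0.835 CPM, 20 counts), in Mzb1 (0.0835 CPM, 2 counts) and in Ighg1 (0.0418 CPM, 1 count). 24-mo WT mouse 6 was apart in Ighg1 (3.58 CPM, 58 counts) and Mzb1 (0.925 CPM, 15 counts). 2-mo WT mouse 1 was apart in Mzb1 (0.0918 CPM, 2 counts) and 24-mo WT mouse 3 in Ighg2b (0.162 CPM, 3 counts).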

How the results depend on the processing

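The number of members that passed moved with the count minimum. For HGPS against 2-mo WT it was 0 with 10 counts in 6 mice, 2 with 10 counts in 3 mice and 2 without a minimum. For 24-mo WT against 2-mo WT it was 0, 1 and 1, and 1 with DESeq2. For HGPS against 24-mo WT it was 1 with each of these, and 0 at the study's cut-offs. Leaving out each mouse in turn gave 0 to 0, 0 to 0 and 1 to 2, and the 2 came without HGPS mouse 6. The replicate number as a block gave 0, 0 and 1, so it changed no call. Same-numbered mice are different animals, and the correlations of their deviations ran from -0.162 to 0.172, with 2 of 18 pairs above 0.1, so the numbers did not pair the mice.

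Of the members' fold changes, 3 changed sign. Cd79b in HGPS against 2-mo WT did so without 2-mo WT mouse 1 (0.137), within a range of -0.583 to 0.137 when a mouse was left out. Ighm in HGPS against 24-mo WT, near 0, changed sign without a minimum (0.0024) and in 6 of the 18 fits that left out a mouse, within a range of -0.0814 to 0.0345. Jchain in HGPS against 24-mo WT with 10 counts in 3 mice changed sign with the block (-0.212) and without HGPS mouse 6 (-0.877) or 24-mo WT mouse 2 (-0.0807), 3 (-0.152) or 4 (-0.0450). Igha in that comparison passed without HGPS mouse 2 or 4 or 24-mo WT mouse 4, with the limit of its entry through HGPS mice given above. Fits with that minimum that left out a mouse, used the block or used DESeq2 were added after seeing the data. Variable segments with at least 3 counts in a mouse averaged 3.67 in HGPS, 0.667 in 2-mo WT and 4.67 in 24-mo WT, against 13.0, 8.67 and 20.8 with any count. For 5 of the 10 members no fold change was fitted with the minimum of 6 mice, and most values rest on under 50 counts per mouse.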
